A study of Mus musculus with 12 samples.

Results

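Purified myotubes that lacked both Kdm5a and Rb1 (Kdm5a-/-;Rb1-/-, double knockout, DKO) were compared with purified wild-type (WT) myotubes by RNA sequencing, with 2 libraries in each group. All were made from embryonic fibroblasts of C57BL/6 mice, turned toward skeletal muscle by an adenovirus carrying MyoD. The virus was left on for 24 h and the medium renewed for a further 72 h, both times with horse serum at 2% and insulin at 10 µg/ml. Myotubes were then freed with trypsin, separated by size as they settled under gravity, and returned to conditioned medium for 24 h before poly(A) RNA was taken. Both groups therefore carried the virus and went through the purification, and they differed by genotype. The age of the embryos is not stated in the labels. The genes described are those with a mean normalised read count of at least 10 over the 4 libraries, outside the X and Y chromosomes. They number 16034 of the 36229 genes counted, and a further 636 tested genes on X or Y were set aside.

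The retinoblastoma protein RB1 holds the E2F transcription factors in check as cells leave the division cycle, and muscle cells have long been used to study that exit. KDM5A is a histone H3 lysine 4 demethylase that binds RB1. MyoD turns fibroblasts into muscle by switching on Myog, the Mef2 factors and then the genes of the sarcomere, the contractile unit. In normal myotubes the genes of DNA replication and mitosis are silent and stay so when serum is given.

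The libraries held 8688604 and 15570731 reads for DKO replicates 1 and 2, and 9549351 and 14116839 reads for WT replicates 1 and 2. Between the DKO libraries the median absolute log2 difference of a gene was 0.501, against 0.142 between the WT libraries. In all, 19.6% of genes lay at least 2-fold apart between the DKO libraries, against 5.18% between the WT libraries. Every library held transcripts of muscle. Summed over 10 myotube markers, the normalised reads were 204975 and 246234 in DKO libraries and 761870 and 737702 in WT libraries. Of 8 fibroblast markers, Dcn and Lum were covered by at most 3 reads in any library, and the sum of the 8 was 2555 and 2696 in DKO libraries and 2835 and 3305 in WT libraries. Of these 8, Pdgfra, Thy1 and Postn rose, Col3a1 fell and the others did not pass or were too low to test. None of these 4 calls was kept with WT replicate 1 left out (limma adjusted p = 0.209, 0.169, 0.0509 and 0.121) or WT replicate 2 (0.203, 0.0808, 0.0934 and 0.141). The macrophage gene Adgre1 and the globin gene Hbb-bt had no read in any library. The X-inactivation transcript Xist had 9881 and 9261 normalised reads in DKO libraries and 1.86 and 2.48 in WT libraries, while the Y-linked Ddx3y had none in DKO libraries and 2752 and 2548 in WT libraries. Genotype and the sex of the source embryos therefore cannot be told apart here. Whether the paired libraries of a genotype are independent cultures is not stated, and p-values measure their spread only, which may be technical.

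The targeted genes were read first. Kdm5a (ENSMUSG00000030180, chromosome 6) had 787 and 614 normalised reads in DKO libraries and 3033 and 2775 in WT libraries. It fell by 2.06 on the log2 scale (SE 0.21, limma adjusted p = 0.00287), and neither DKO library came near the WT pair. Rb1 (ENSMUSG00000022105, chromosome 14) had 2356 and 2104 normalised reads in DKO libraries and 3500 and 3218 in WT libraries. The groups did not overlap, but the log2 difference of -0.59 (SE 0.19) did not pass (limma adjusted p = 0.058). The labels do not say which exons were deleted, and reads from the exons that remain count toward either gene. Exons of Kdm5a overlap Ccdc77 and exons of Rb1 overlap Lpar6 and Rcbtb2, so both values are uncertain. Kdm5b (ENSMUSG00000042207), an autosomal relative of Kdm5a, was not targeted and had 351 and 302 normalised reads in DKO libraries and 2028 and 2042 in WT libraries. Kdm5b fell by 2.64 (SE 0.20, limma adjusted p = 0.00147). Leaving out WT replicate 1 or WT replicate 2 ended the call for Kdm5a (limma adjusted p = 0.0608 and 0.0515). The log2 difference of Rb1 was -0.67 with DKO replicate 1 left out and -0.51 with DKO replicate 2 left out.

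Of the 16034 genes, 3408 rose (21.3%) and 2953 fell (18.4%) in DKO myotubes, 6361 together (39.7%). Scaled by library totals instead, where the median of all genes was 0.19 and not -0.04, 4105 rose and 2131 fell. The test was limma's moderated test on log2 of the value plus 1, two-sided, with Benjamini-Hochberg adjustment over all 16670 genes tested and a threshold of 0.05. Changes of at least 2-fold made up 3122 of the rises (19.5% of all genes) and 2466 of the falls (15.4%). Both DKO libraries lay above both WT libraries for 5989 genes (37.4%) and below both for 6199 (38.7%). Among the 9673 genes that did not pass, 1532 had a mean change of 2-fold or more. The count of calls differed when a library was left out. It was 1540 without WT replicate 1 and 1638 without WT replicate 2. With 1 DKO library left out the count was larger, 10930 without DKO replicate 1 and 9584 without DKO replicate 2, since the spread then comes from the WT pair alone and the lone DKO library is assumed to vary as that pair does. The shares of 21.3% and 18.4% are the background for the list counts of the reported fit, and a list near them does not stand apart from all genes. They are not matched for GC content, with which the calls differed, as given below. They are no background for list counts with a library left out, since the calls over all genes then shift as well. Those counts describe how the fit depends on a library and are not results about a list. A call is said to be kept without either WT library where it passed with each of them left out in turn.

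**Figure D1:**
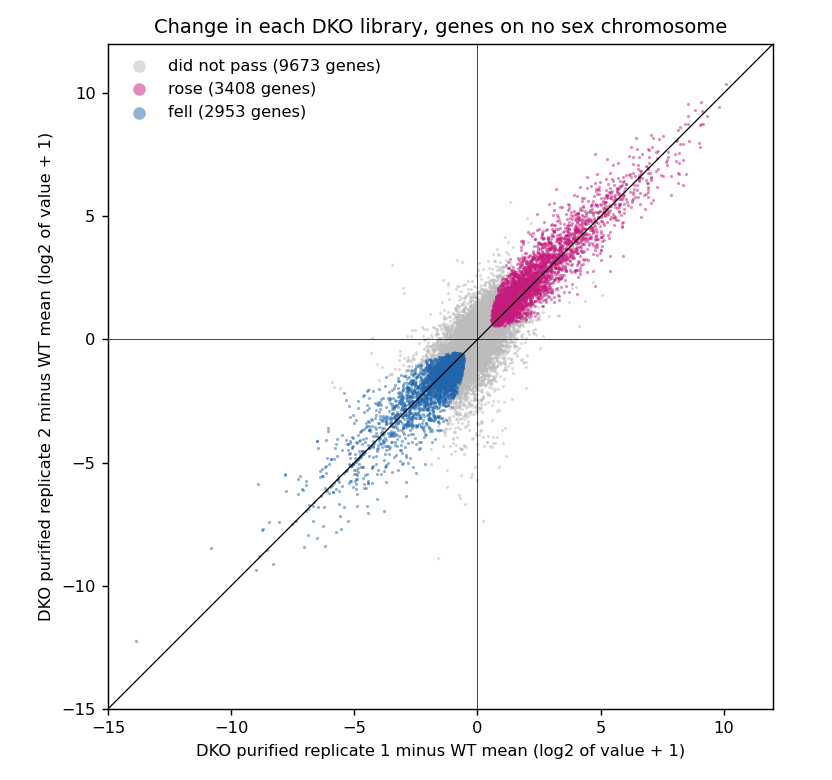
Change of each gene in DKO purified replicate 1 (x axis) and DKO purified replicate 2 (y axis), each against the mean of the WT libraries, as differences of log2(value + 1); colours mark the 3408 genes that rose, the 2953 that fell and the 9673 that did not pass, and the diagonal marks equal change. Genes that passed lie along the diagonal in both directions, and the cloud of genes that did not pass is stretched along the y axis, the axis of DKO replicate 2.

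Taken singly, DKO replicate 1 was at least 2-fold above the WT mean for 3603 genes (22.5%) and at least 2-fold below it for 2982 (18.6%). DKO replicate 2 was above it for 4303 genes (26.8%) and below it for 3851 (24.0%). Few genes went 2-fold opposite ways. DKO replicate 1 was above and replicate 2 below WT for 16 genes, and the reverse held for 13. Of the 6361 genes that passed, 60.4% were further from WT in DKO replicate 2.

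The 10 largest rises were led by genes of cell division, which were close to silent in WT myotubes. Kif18b (ENSMUSG00000051378, chromosome 11), a kinesin of the mitotic spindle, had 2043 and 2478 normalised reads in DKO libraries and 0 and 2.48 in WT libraries. By reads it was higher in DKO myotubes by a ratio of 1549, with a 95% exact counting interval of 428 to 12794. Ccnb1, which encodes cyclin B1, the partner of Cdk1 at mitotic entry, had 634 and 537 normalised reads in DKO libraries and no read in either WT library. It was at least 257-fold higher in DKO myotubes, taking 3 reads over the WT group as the floor. Nuf2, a kinetochore protein, had 1042 and 1149 normalised reads in DKO libraries and 0 and 2.48 in WT libraries (ratio 743, counting interval 205 to 6142). Cenpa, the centromeric variant of histone H3, had 1324 and 1875 normalised reads in DKO libraries and 7.44 and 0 in WT libraries (log2 change 9.08, SE 1.02, limma adjusted p = 0.00345). The list also held Clspn, an adaptor of the replication checkpoint, and the spindle gene Ckap2l, whose exons overlap Gm14024, with log2 changes of 8.91 and 8.87. In each of these genes both DKO libraries stood far above both WT libraries and close to each other.

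Of the other genes among the 10 rises, E2f7 is described with the E2F factors below, and Fam81a, Mesp2 and Crabp1 lie outside the cell cycle lists. Fam81a had 888 and 705 normalised reads in DKO libraries and no read in WT libraries, at least 348-fold higher. Mesp2, a transcription factor of somite segmentation, had 556 and 1128 normalised reads in DKO libraries and 0 and 1.24 in WT libraries (ratio 1214, counting interval 218 to 47975). Crabp1, which binds retinoic acid inside the cell, had 1070 and 807 normalised reads in DKO libraries and 0 and 2.48 in WT libraries (ratio 611, counting interval 169 to 5048). The 10 rises kept their call without either WT library. In bulk RNA a change in the number of cells of a type and a change of RNA within each cell cannot be told apart.

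The 10 largest falls were led by Mstn (ENSMUSG00000026100, chromosome 1), which encodes myostatin, the secreted factor that limits muscle growth. It had 0 and 2.09 normalised reads in DKO libraries and 15306 and 14435 in WT libraries. By reads Mstn was lower in DKO myotubes by a ratio of 11609 (WT over DKO, 95% exact counting interval 3213 to 95865). Myh8 (ENSMUSG00000055775, chromosome 11), the perinatal myosin heavy chain, had 156 and 163 normalised reads in DKO libraries and 78148 and 69138 in WT libraries. It fell by 8.84 on the log2 scale (SE 0.19, limma adjusted p = 0.000386), and its DKO libraries were as close to each other as its WT libraries. The melatonin receptor gene Mtnr1a had 1.63 and 1.05 normalised reads in DKO libraries and 1271 and 1394 in WT libraries (ratio 1056, WT over DKO, counting interval 292 to 8725). Scg2, a secretogranin of secretory granules, had no read in DKO libraries and 394 and 358 normalised reads in WT libraries, at least 195-fold lower in DKO myotubes. Rxrg, a retinoid X receptor, had 1.63 and 0 normalised reads in DKO libraries and 391 and 298 in WT libraries (ratio 526, WT over DKO, counting interval 94 to 20839).

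The other falls were the kinesin family gene Kif26a, the hair follicle gene Tchh, the relaxin receptor gene Rxfp1, and a pair of transcripts of the Hoxd cluster, Hoxd8 and the antisense Hoxd3os1. Their log2 changes ran from -9.63 in Kif26a to -7.74 in Rxfp1. Hoxd3os1 shares exons with Hoxd3 and the counting is not stated to use strand, so its reads may belong to either. All 10 falls kept their call without either WT library.

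**Figure D2:**
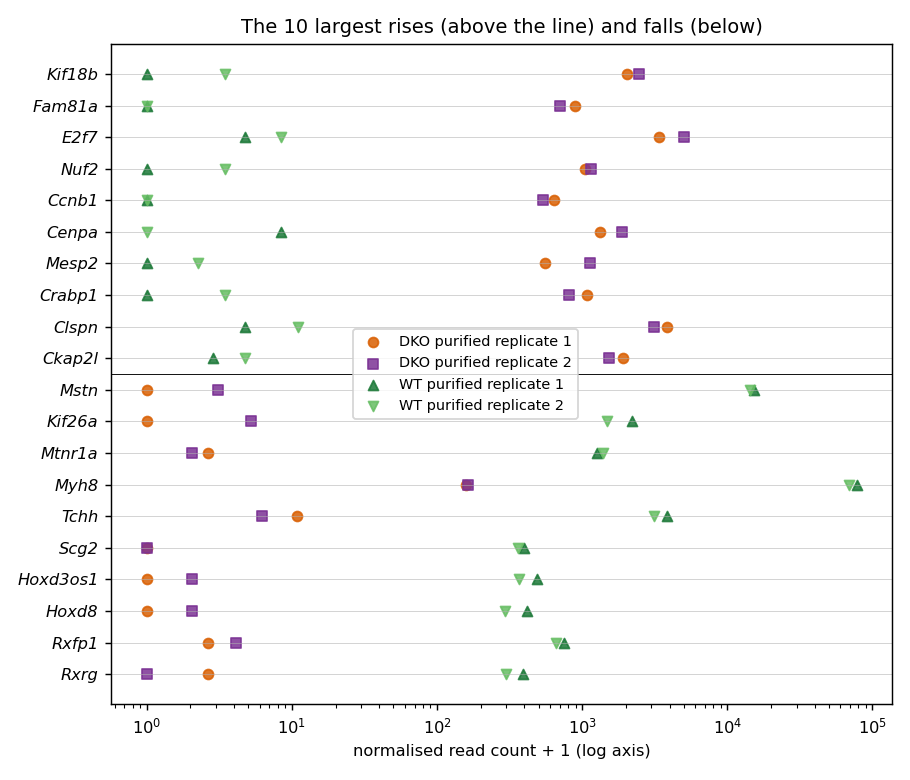
Normalised read count plus 1 (log axis) of the 10 genes with the largest rises, above the line, and the 10 with the largest falls, below it, in each DKO and WT purified library. The DKO points and the WT points lie well apart in all 20 genes, with Mstn at 0 and 2.09 in DKO libraries and at 15306 and 14435 in WT libraries.

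Genes of DNA replication are E2F targets, and many genes of mitosis carry a different element, the cell cycle homology region (CHR), bound by the MuvB complexes. Promoters of E2f7, of the helicase genes Mcm6 and Mcm5, and of the mitotic genes Ccnb2 and Cdc20 are shown, all of which rose, because these elements can be read in them. Each run is 120 bases from the 250 upstream of the RefSeq start on GRCm38.p6, a later build than the mm9 of the read counts, and is read 5′ to 3′ on the strand of the gene. Capitals mark E2F words in the first 3 and the CHR word in the last 2.
E2f7, chr10:110745221-110745340, plus strand: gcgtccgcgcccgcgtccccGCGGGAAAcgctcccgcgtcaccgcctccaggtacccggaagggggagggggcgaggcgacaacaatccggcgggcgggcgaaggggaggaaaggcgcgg
Mcm6, chr1:128359716-128359835, minus strand: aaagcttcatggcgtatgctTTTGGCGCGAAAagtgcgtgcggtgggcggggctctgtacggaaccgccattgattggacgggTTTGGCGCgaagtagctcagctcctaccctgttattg
Mcm5, chr8:75109336-75109455, plus strand: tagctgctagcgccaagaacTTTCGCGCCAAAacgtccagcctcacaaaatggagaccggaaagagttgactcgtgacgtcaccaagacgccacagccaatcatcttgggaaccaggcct
Ccnb2, chr9:70421622-70421741, minus strand: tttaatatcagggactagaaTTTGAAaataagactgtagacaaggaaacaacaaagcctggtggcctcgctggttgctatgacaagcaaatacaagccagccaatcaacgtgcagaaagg
Cdc20, chr4:118437344-118437463, minus strand: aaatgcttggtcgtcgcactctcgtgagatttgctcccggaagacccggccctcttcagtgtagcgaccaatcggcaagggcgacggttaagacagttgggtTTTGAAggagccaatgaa

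The E2F search used TTTCCCGC, TTTGGCGC, TTTCGCGC and TTTGCCGC on both strands of the 250 bases upstream of each start, and a promoter with several or overlapping words was counted once. An E2F word was present in 24.5% of the replication list (13 of 53 promoters given), in 9.84% of the mitosis list (6 of 61) and in 2.16% of all 27025 promoters. The CHR search used TTTGAA on both strands. It was present in 36.1% of the mitosis list (22 of 61), in 15.1% of the replication list (8 of 53) and in 18.3% of all promoters. Among tested genes the shares were 3.61% for the E2F words and 12.6% for the CHR word. Over all genes that rose they were 4.89% and 14%, and over all that fell 2.49% and 13%. Of the 10 largest rises 1 had an E2F word and 1 the CHR word. Of the 9 largest falls with a promoter given, 0 had an E2F word and 2 the CHR word. The higher shares thus belong to these lists and not to the risen genes as a whole. A match is a description of the letters and not a bound site.

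The replication programme was raised almost throughout. Of 69 measured genes of DNA replication and E2F targets, 63 rose and none fell, and the 6 others did not pass. Their median log2 change was 3.50, and it was 3.51 in DKO replicate 1 and 3.41 in DKO replicate 2, beside -0.04 over all genes. Mcm3, part of the replicative helicase, had 4783 and 5469 normalised reads in DKO libraries and 83.7 and 98.1 in WT libraries (log2 change 5.80, SE 0.21, limma adjusted p = 0.000849). Rrm2, the small subunit of ribonucleotide reductase, had 5163 and 5526 normalised reads in DKO libraries and 138 and 164 in WT libraries. Ccne1, which encodes the S-phase cyclin E1, had 10084 and 10073 normalised reads in DKO libraries and 599 and 610 in WT libraries, and rose by 4.06 (SE 0.18, limma adjusted p = 0.000849). Mcm5 and Mcm6, whose promoters are printed above, are helicase subunits as well. Mcm5 had 3422 and 3759 normalised reads in DKO libraries and 188 and 184 in WT libraries, and Mcm6 had 3992 and 4082 in DKO libraries and 331 and 441 in WT libraries. The chromatin regulator Atad2 rose by 5.89 and the histone chaperone Asf1b by 4.80 on the log2 scale. In these 7 genes the DKO libraries were close to each other and far from WT. The list's count was 46 without WT replicate 1 and 51 without WT replicate 2, with none that fell in either.

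The median change was larger for mitotic genes. Of 74 measured genes of G2/M and mitosis, 71 rose and 1 fell, with a median log2 change of 5.70, at 5.78 in DKO replicate 1 and 5.71 in DKO replicate 2. Cdk1, the mitotic kinase, had 3962 and 3188 normalised reads in DKO libraries and 14.9 and 21.1 in WT libraries (log2 change 7.57, SE 0.28, limma adjusted p = 0.000849). Dlgap5, a spindle protein, had 2761 and 2093 normalised reads in DKO libraries and 14.9 and 17.4 in WT libraries. Ncaph, a condensin subunit, had 2631 and 2223 normalised reads in DKO libraries and 68.8 and 64.6 in WT libraries. Cdc20, the activator of the anaphase-promoting complex, had 764 and 728 normalised reads in DKO libraries and 9.30 and 7.45 in WT libraries, and Ccnb2, cyclin B2, had 823 and 646 in DKO libraries and 39.1 and 39.8 in WT libraries. Both carry the CHR word shown above, and exons of Cdc20 overlap Elovl1. The centrosomal kinase gene Nek2 and the cyclin F gene Ccnf rose by 6.61 and 5.59. The 1 that fell, Cenpp, whose exons overlap Aspn and Ippk, and the 2 that did not pass, Pttg1 and Kif18a, were named after their values were seen. Cenpp did not pass without WT replicate 1 or WT replicate 2. The log2 change of Pttg1 was 1.02 without DKO replicate 1 and 0.33 without DKO replicate 2, and that of Kif18a 0.25 and 2.25. The count of rises was 68 without either WT library in turn.

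Repair by homologous recombination followed, with 21 of 30 measured genes risen, none fallen, and a median log2 change of 2.28. Brca1 had 1532 and 1067 normalised reads in DKO libraries and 18.6 and 7.45 in WT libraries, and rose by 6.64 (SE 0.48, limma adjusted p = 0.00145). Exo1, a DNA end-resecting exonuclease, had 660 and 453 normalised reads in DKO libraries and 1.86 and 0 in WT libraries (ratio 717, counting interval 128 to 28360). Bard1, the partner of Brca1, and Rad54b rose by 4.56 and 4.83. The count was 14 without WT replicate 1 and 14 without WT replicate 2. None of 11 measured replication-dependent histone genes passed by limma, and 21 of the 32 matched were under the filter. At an unadjusted p under 0.05 there was 1, edgeR passed none and DESeq2 passed 1. Without DKO replicate 1 the histone list had 2 falls, and without DKO replicate 2 it had 4 rises. Histone messengers lack poly(A) tails, and these libraries were selected for poly(A).

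The factors above these genes moved unevenly. Of 20 measured genes of the pocket proteins, E2F factors, MuvB complex and KDM5 family, 7 rose and 2 fell, and the 2 were Kdm5a and Kdm5b. E2f7, a repressor E2F that is itself an E2F target, had 3378 and 5009 normalised reads in DKO libraries and 3.72 and 7.45 in WT libraries, and rose by 9.35 (SE 0.40, limma adjusted p = 0.000849). The activator E2f1 had 3277 and 3160 normalised reads in DKO libraries and 711 and 713 in WT libraries, a rise of 2.17. Rbl1, the pocket protein p107, had 1234 and 1158 normalised reads in DKO libraries and 175 and 214 in WT libraries, a rise of 2.62. The rises numbered 6, and the falls 1 (Kdm5b), without WT replicate 1 or without WT replicate 2. Leaving out DKO replicate 1 gave 10 rises and 7 falls, and leaving out DKO replicate 2 gave 11 and 4.

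Among 18 measured G1 cyclins, kinases and inhibitors, 6 rose and 4 fell. The inhibitors Cdkn2a and Cdkn2c rose, with 3109 and 2811 normalised reads of Cdkn2a in DKO libraries and 249 and 262 in WT libraries (log2 change 3.53, SE 0.19, limma adjusted p = 0.000984). Fbxw7, which marks cyclin E for destruction, fell to 634 and 492 normalised reads in DKO libraries, against 7226 and 6469 in WT libraries. Mycn fell to 13 and 6.28 normalised reads in DKO libraries, against 352 and 284 in WT libraries. Cdkn2a, Cdkn2c, Fbxw7 and Mycn kept their calls without either WT library, while the list's counts dropped to 3 risen and 2 fallen. Without DKO replicate 2 the fallen numbered 8. Of 31 measured p53 targets and apoptosis genes, 13 rose and 2 fell, with a median log2 change of 0.54. Trp73, which encodes the p53 relative p73, had 677 and 959 normalised reads in DKO libraries and 13 and 4.97 in WT libraries, and rose by 6.46 (SE 0.50, limma adjusted p = 0.00159). Its exons overlap Trp73os. Pidd1, a death-domain protein, had 4001 and 8950 normalised reads in DKO libraries and 285 and 234 in WT libraries, more than 2-fold apart within the DKO pair. Without WT replicate 1 the p53 list had 4 rises, and without WT replicate 2 it had 3, with none fallen. With DKO replicate 1 left out it had 19 rises and 5 falls, and without DKO replicate 2 it had 21 and 4.

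**Figure D3:**
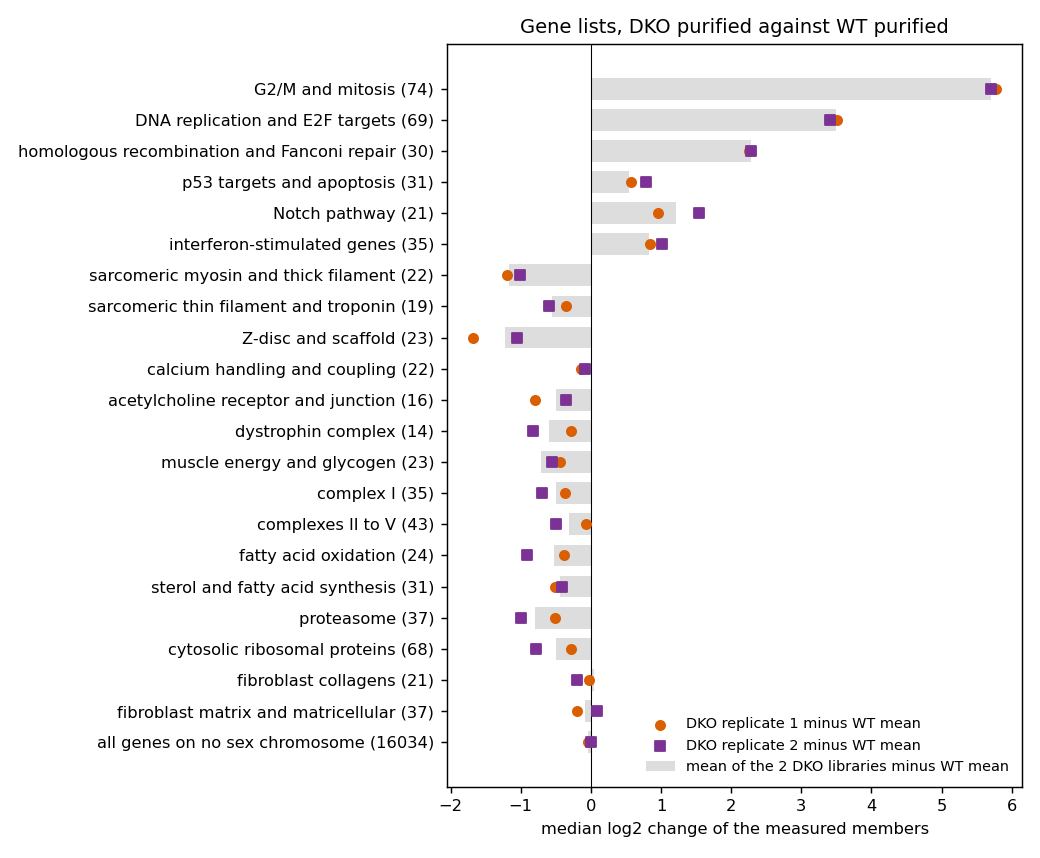
Median log2 change over the measured members of each gene list (number in brackets) for the mean of the DKO libraries (bars) and for each DKO library singly (points), against the mean of the WT libraries. The cell division lists stand at 2.28 to 5.70 and the median of all genes at -0.04, while the lists of the sarcomere, calcium handling, junction, dystrophin complex, muscle energy, complexes I to V and fatty acid oxidation plotted lie at or below 0; in the Notch list the DKO libraries stand at 0.96 and 1.54.

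Sarcomere genes mostly had lower values in DKO myotubes, though not as a block. Of 22 measured genes of sarcomeric myosin and the thick filament, 5 rose and 11 fell, with a median log2 change of -1.16. Besides Myh8, the light chain Myl4 had 5315 and 4500 normalised reads in DKO libraries and 90764 and 86587 in WT libraries, and fell by 4.18 (SE 0.21, limma adjusted p = 0.000968). Myh1, the adult fast IIx heavy chain, had 1190 and 830 normalised reads in DKO libraries and 6683 and 5974 in WT libraries. The embryonic heavy chain Myh3 had 48862 and 34514 normalised reads in DKO libraries and 163792 and 154839 in WT libraries, and fell by 1.96 (SE 0.29, limma adjusted p = 0.00681). Myh3 did not pass without WT replicate 1 (limma adjusted p = 0.22) or WT replicate 2 (0.199). Exons of Myl4 overlap Gm22000 and those of Myh1 overlap Myhas. Without WT replicate 1 the thick filament list had no rise and 5 falls, and without WT replicate 2 no rise and 6 falls.

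Of 19 measured thin filament and troponin genes, none rose and 6 fell. Actc1, the cardiac actin that embryonic muscle also uses, had 10252 and 17143 normalised reads in DKO libraries and 223557 and 214567 in WT libraries (log2 change -4.05, SE 0.32, limma adjusted p = 0.00165). Acta1, the skeletal actin, had 51109 and 75326 normalised reads in DKO libraries and 114613 and 129682 in WT libraries, and did not pass (log2 difference -0.97, limma adjusted p = 0.0548). The slow troponin Tnni1 fell to 14413 and 20590 normalised reads in DKO libraries, against 71378 and 67708 in WT libraries. The fast troponin Tnnt3 had 31142 and 14007 normalised reads in DKO libraries and 8940 and 7962 in WT libraries, and did not pass (limma adjusted p = 0.0567). Tnni1 did not pass without WT replicate 1 (0.149) or WT replicate 2 (0.132), and the list then had 2 and 1 falls. The log2 difference of Acta1 was -0.69 without DKO replicate 1 and -1.25 without DKO replicate 2, and that of Tnnt3 0.73 and 1.88. The list had 5 rises and 11 falls without DKO replicate 1, and 4 and 10 without DKO replicate 2.

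Z-disc and scaffold genes had 15 falls and 3 rises among 23 measured, with a median log2 change of -1.23. Actn2, the alpha-actinin that anchors thin filaments, had 5490 and 7038 normalised reads in DKO libraries and 45237 and 44063 in WT libraries, and fell by 2.84 (SE 0.23, limma adjusted p = 0.00164). Myoz2, a calcineurin-binding Z-disc protein, had 223 and 119 normalised reads in DKO libraries and 3081 and 2954 in WT libraries, and fell by 4.20. The giant protein titin, encoded by Ttn, had 14784 and 12650 normalised reads in DKO libraries and 83253 and 83606 in WT libraries. Ttn did not pass without WT replicate 1 (limma adjusted p = 0.0751) or WT replicate 2 (0.0714), and its exons overlap Gm13938. The list had no rise and 5 falls without either WT library in turn.

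Of 22 measured calcium handling genes 2 rose and 10 fell (9.09% and 45.5%), with a median log2 change of -0.00. Casq2, a calcium-binding protein of the sarcoplasmic reticulum, had 4864 and 3602 normalised reads in DKO libraries and 30177 and 29329 in WT libraries, and fell by 2.83 (SE 0.23, limma adjusted p = 0.00173). The voltage sensor Cacna1s had 1550 and 1669 normalised reads in DKO libraries and 6733 and 6606 in WT libraries. Bin1, which shapes transverse tubules, went the other way, with 15226 and 17160 normalised reads in DKO libraries and 5187 and 5046 in WT libraries. Neither Cacna1s nor Bin1 passed with a WT library left out (limma adjusted p = 0.0564 and 0.053 for Cacna1s, 0.13 and 0.13 for Bin1), and the list then had no rise and 3 falls. With DKO replicate 1 left out it had 7 rises and 10 falls.

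At the neuromuscular junction, Musk, the receptor kinase that gathers acetylcholine receptors, had 71.6 and 71.2 normalised reads in DKO libraries and 2607 and 2259 in WT libraries. It fell by 5.07 (SE 0.21, limma adjusted p = 0.000849), the clearest of 7 falls among 16 measured genes, of which 2 rose. Colq, which anchors acetylcholinesterase, had 203 and 407 normalised reads in DKO libraries and 20.5 and 11.2 in WT libraries. Musk and Colq kept their calls without either WT library, and the list then had 2 rises and 1 fall. Without DKO replicate 1 the list had 4 rises and 8 falls, and without DKO replicate 2 it had 3 and 12. In the dystrophin complex 5 of 14 measured genes fell, none rose, and 1 fall (Sntb1, a syntrophin, log2 change -2.77) was left without either WT library. With DKO replicate 1 left out, 2 genes of the complex rose and 9 fell.

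Ckm, the muscle creatine kinase, rose. It had 2306 and 2298 normalised reads in DKO libraries and 463 and 432 in WT libraries (log2 change 2.36, SE 0.18, limma adjusted p = 0.0016), and its exons overlap A930016O22Rik. Of 23 measured genes of muscle energy and glycogen, 4 rose and 7 fell. Ppp1r3c, which targets protein phosphatase 1 to glycogen, had 229 and 121 normalised reads in DKO libraries and 4642 and 4280 in WT libraries, and fell by 4.73. Fabp3, a fatty acid carrier, fell to 16.3 and 25.1 normalised reads in DKO libraries, against 279 and 340 in WT libraries, and its exons overlap other genes. Without either WT library the list had 1 rise, Ckm, and 2 falls. The falls numbered 11 without DKO replicate 1 and 14 without DKO replicate 2.

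Among the regulators of muscle, Myod1 had 7443 and 21379 normalised reads in DKO libraries and 12979 and 13074 in WT libraries (log2 difference -0.05, SE 0.51, limma adjusted p = 0.948), so the DKO libraries lay on either side of the WT pair. Myod1 reads of the virus and of the cells' own gene are not separated in the files. Myog had 18646 and 23213 normalised reads in DKO libraries and 35029 and 30136 in WT libraries, and did not pass (log2 difference -0.64, SE 0.24, limma adjusted p = 0.0853). Myf6, the myogenic factor MRF4 of late differentiation, had no read in DKO libraries and 188 and 143 normalised reads in WT libraries, at least 84-fold lower in DKO myotubes. Mef2c fell to 1664 and 1178 normalised reads in DKO libraries, against 14534 and 12781 in WT libraries, while Mef2a had 16716 and 19173 in DKO libraries and 3725 and 3064 in WT libraries, a rise of 2.41. Vgll2, a cofactor of TEAD factors, fell by 4.52. Over the 25 measured regulators 6 rose and 6 fell (24% each), near the shares over all genes of 21.3% and 18.4%. Mef2a did not pass without WT replicate 1 (limma adjusted p = 0.0521) or WT replicate 2 (0.0656), and the list then had 1 rise and 3 falls. The log2 difference of Myog was -0.49 without DKO replicate 1 and -0.80 without DKO replicate 2, and that of Myod1 0.71 and -0.81. A lone DKO library has no spread of its own, so no direction is drawn for Myod1. The list had 10 rises and 12 falls without DKO replicate 1, and 7 and 14 without DKO replicate 2.

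Fusion genes had 7 rises and 7 falls among 20 (35% each). Mymx, which encodes the fusogen myomixer, had 5993 and 5384 normalised reads in DKO libraries and 642 and 444 in WT libraries, and rose by 3.41 (SE 0.25, limma adjusted p = 0.00144). Its partner Mymk, myomaker, had 12128 and 30894 normalised reads in DKO libraries and 23499 and 23260 in WT libraries, and did not pass (limma adjusted p = 0.664). The adhesion gene Jam2 fell to 413 and 390 normalised reads in DKO libraries, against 4331 and 4671 in WT libraries. Dock1, an activator of Rac in fusion, rose by 2.30. Jam2, Mymx and Dock1 kept their calls without either WT library, and the list had 3 rises and 1 fall without WT replicate 1, and 3 and 2 without WT replicate 2. The log2 difference of Mymk was 0.40 without DKO replicate 1 and -0.95 without DKO replicate 2, so no direction is drawn for Mymk.

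**Figure D4:**
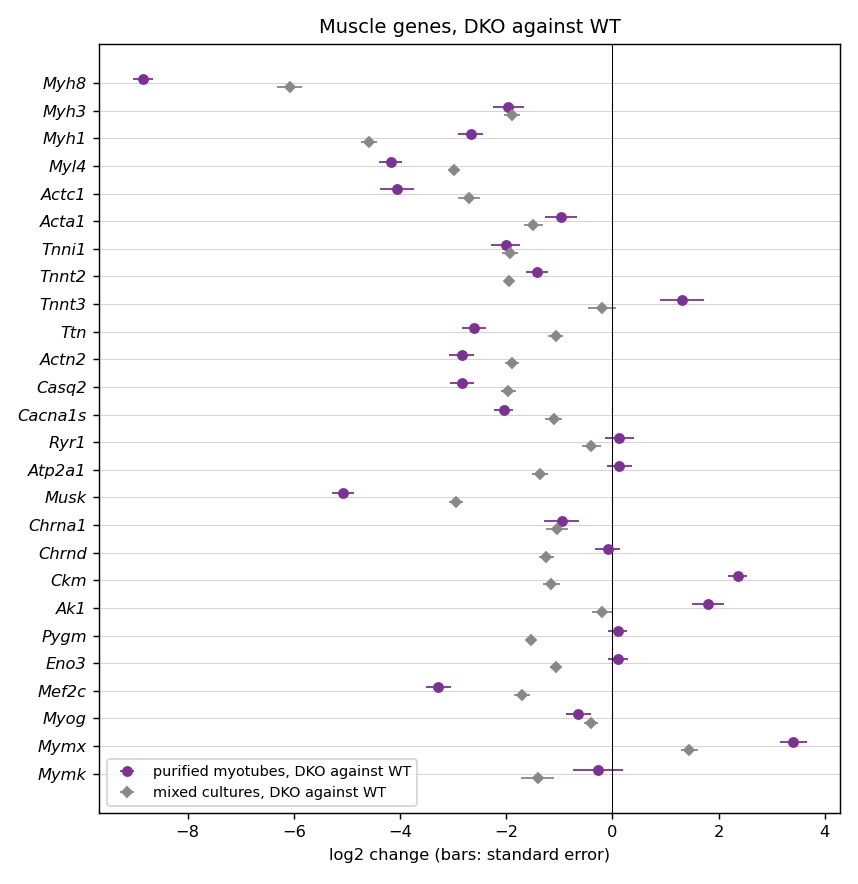
Log2 change of 26 muscle genes in DKO against WT, in purified myotubes (circles, 2 libraries a group) and in mixed cultures (diamonds, 2 libraries a group), with standard errors from the fits. Myh8, Musk, Myl4 and Actc1 lie furthest left in purified myotubes, and Ckm lies at 2.36 in purified myotubes and at -1.15 in mixed cultures.

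Mitochondrial genes showed small differences. Of 35 measured genes of complex I, 2 rose and 7 fell, with a median log2 change of -0.49, and of 43 genes of complexes II to V, 2 rose and 2 fell. The complex I gene Ndufs7 had 1231 and 906 normalised reads in DKO libraries and 2443 and 2272 in WT libraries (log2 change -1.16, SE 0.23, limma adjusted p = 0.0152). Cox8b, the muscle form of a cytochrome oxidase subunit, had 499 and 774 normalised reads in DKO libraries and 162 and 150 in WT libraries, a rise of 1.99. None of the calls on these 2 lists was left without either WT library. With DKO replicate 1 left out, complex I had 3 rises and 24 falls and complexes II to V had 5 and 22. With DKO replicate 2 left out these were 4 and 15, and 8 and 9. Scaling by library totals, which moved the median of all genes to 0.19, left 1 fall in complex I and none in complexes II to V.

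Fatty acid oxidation had 8 falls and no rise among 24, led by Fabp3, and 1 fall was left without either WT library. Of 26 genes of the tricarboxylic acid cycle and pyruvate entry 5 rose and 6 fell, and of 76 mitochondrial ribosomal genes 2 rose and 6 fell, with no call left on either list without a WT library. Of the regulators of mitochondria, Esrrg, an orphan nuclear receptor, had 226 and 296 normalised reads in DKO libraries and 5.58 and 4.97 in WT libraries, and rose by 5.37 (SE 0.36, limma adjusted p = 0.00128). The coactivator Ppargc1a had 171 and 205 normalised reads in DKO libraries and 61.4 and 29.8 in WT libraries, and rose by 2.10 (SE 0.43, limma adjusted p = 0.0168), a call that ended without WT replicate 1 (0.0565) or WT replicate 2 (0.142). On that list 4 of 25 rose and 7 fell, against 1 and 1 without either WT library. Leaving out DKO replicate 1 gave 2 rises and 16 falls for fatty acid oxidation, 8 and 14 for the tricarboxylic acid cycle, 14 and 27 for mitochondrial ribosomal genes and 12 and 10 for the regulators. Leaving out DKO replicate 2 gave 2 and 12, 6 and 13, 16 and 18, and 9 and 10.

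Glycolysis had 5 rises and 7 falls among 24 measured genes (20.8% and 29.2%), shares near those of all genes for rises (21.3%) and above for falls (18.4%). Hk2, the muscle hexokinase, had 405 and 350 normalised reads in DKO libraries and 2677 and 2839 in WT libraries, and fell by 2.87 (SE 0.20, limma adjusted p = 0.0013). Eno2, the neuronal enolase, had 476 and 817 normalised reads in DKO libraries and 37.2 and 37.3 in WT libraries, a rise of 4.03. Without either WT library 2 rises and 1 fall were left. Sterol and fatty acid synthesis had 5 rises and 12 falls among 31, with 1 rise left without WT replicate 1, 2 without WT replicate 2 and no fall in either. The proteasome had 10 falls and no rise among 37, and cytosolic ribosomal proteins 5 falls and 1 rise among 68. No call on these last 2 lists was left without a WT library, and library-total scaling left 2 falls for the proteasome and none for the ribosomal proteins. Without DKO replicate 1 the proteasome had 2 rises and 28 falls, the ribosomal proteins 3 and 33, and glycolysis 7 and 11. Without DKO replicate 2 these were 2 and 25, 1 and 10, and 8 and 10.

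Of 37 measured genes of the fibroblast matrix 11 rose and 13 fell, and of 21 collagens 5 rose and 8 fell. Tnc, the matrix glycoprotein tenascin C, had 1085 and 1184 normalised reads in DKO libraries and 8763 and 10013 in WT libraries, and fell by 3.05 (SE 0.19, limma adjusted p = 0.00117). Ccn2, a target of TGF-beta and YAP, had 390 and 613 normalised reads in DKO libraries and 6815 and 9617 in WT libraries, and fell by 4.05. Fbln2, a fibulin, went the other way, with 1088 and 1416 normalised reads in DKO libraries and 149 and 159 in WT libraries. Col12a1 fell to 268 and 294 normalised reads in DKO libraries, against 2115 and 2174 in WT libraries. Exons of Tnc overlap 8030451A03Rik and those of Ccn2 overlap Gm15270. The 4 genes kept their calls without either WT library. The matrix list then had 4 rises and 3 falls, and the collagens 3 rises and 2 falls without WT replicate 1 and 1 and 2 without WT replicate 2. The collagens, without DKO replicate 1, had 8 rises and 8 falls. The sum over the 8 fibroblast markers, lower in both DKO libraries, took its direction from Col3a1, with 940 and 638 normalised reads in DKO libraries and 2039 and 2249 in WT libraries. The other 7 summed to 1615 and 2057 in DKO libraries and 796 and 1056 in WT libraries, which is the other way. The part of fibroblasts in these changes was not tested.

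Markers of other cell types ranged from no reads to the level of the muscle genes. Acta2, the smooth muscle actin, which developing muscle also uses, had 14077 and 23431 normalised reads in DKO libraries and 101076 and 107023 in WT libraries, and fell by 2.52 (SE 0.32, limma adjusted p = 0.00464). Acta2 did not pass without WT replicate 1 (0.104) or WT replicate 2 (0.106). The other smooth muscle markers went otherwise. Cnn1, calponin, had 351 and 518 normalised reads in DKO libraries and 149 and 168 in WT libraries, and rose by 1.43 (limma adjusted p = 0.0157), and the heavy chain Myh11 rose by 1.50 (0.0347). Tagln, transgelin, had 3415 and 4864 normalised reads in DKO libraries and 4162 and 5689 in WT libraries, and did not pass. Neither Cnn1 nor Myh11 passed without WT replicate 1 (0.181 and 0.131) or WT replicate 2 (0.142 and 0.277), and Myh11 did not without DKO replicate 1 (0.0619). Of 16 measured smooth muscle genes 5 rose and 5 fell, with a median log2 change of 0.35, and 1 rise and 1 fall were left without either WT library. Over 4 endothelial markers the sums were 260 and 272 in DKO libraries and 67 and 89.4 in WT libraries, and 3 of the 4 rose, Kdr, Cdh5 and Tek. The macrophage markers summed to 426 and 1049 in DKO libraries and 128 and 153 in WT libraries. In DKO libraries that sum was mostly Cd68, a lysosomal protein found in many cells, with 416 and 1043 normalised reads against 42.8 and 53.4 in WT libraries (log2 change 3.76, limma adjusted p = 0.00493). In WT libraries it was mostly Csf1r, the receptor of a macrophage growth factor, with 8.13 and 5.23 normalised reads in DKO libraries and 81.9 and 99.4 in WT libraries. Csf1r fell by 3.60 (limma adjusted p = 0.00397), and its exons overlap Hmgxb3. Both calls were kept without either WT library. Ptprc, the pan-leukocyte gene, had at most 2 reads in any library. Of 7 measured macrophage and blood genes 2 rose and 3 fell. In the smaller lists 2 rose and 1 fell of 6 neural and glial genes, 2 rose and 1 fell of 5 epithelial genes, and 1 rose and 2 fell of 6 adipocyte genes. Without WT replicate 1 the counts of rises and falls were 1 and 2 for macrophage and blood, 2 and none for neural, and none and 1 for adipocyte genes, and without WT replicate 2 they were 2 and 2, 2 and none, and none and 1, with 1 and 1 for epithelial genes. Without DKO replicate 2 the macrophage and blood list had 1 rise and 3 falls, and without DKO replicate 1 the neural list had 2 and 2. Matn3, a cartilage matrilin, had 956 and 781 normalised reads in DKO libraries and 1.86 and 2.48 in WT libraries (ratio 380, counting interval 130 to 1845). Of 12 measured cartilage and bone genes 6 rose and 1 fell, while the defining genes Sox9, Col2a1 and Sp7 did not pass. The log2 change of Sox9 was 2.27 without DKO replicate 1 and 0.87 without DKO replicate 2, and that of Sp7 -1.39 and -1.58. Map2, a neuronal microtubule protein, had 3257 and 2620 normalised reads in DKO libraries and 35.3 and 46.0 in WT libraries, and rose by 6.14 (SE 0.26, limma adjusted p = 0.000849). Matn3 and Map2 kept their calls without either WT library. Of the endothelial genes Cdh5 lost its call without WT replicate 1 (0.113) and without DKO replicate 2 (0.0737), and Tek without WT replicate 1 (0.15), WT replicate 2 (0.286) or DKO replicate 1 (0.0692).

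Interferon-stimulated genes leaned upward, with 15 rises and 6 falls among 35 measured and a median log2 change of 0.83. Herc6, an interferon-induced ubiquitin ligase, had 224 and 216 normalised reads in DKO libraries and 5.58 and 2.48 in WT libraries, and rose by 5.53 (SE 0.46, limma adjusted p = 0.00177). Tap1, the peptide transporter of antigen presentation, rose by 3.14. Ifih1, the RNA sensor MDA5, went the other way, with 60.2 and 49.2 normalised reads in DKO libraries and 2026 and 1912 in WT libraries, and fell by 5.15 (SE 0.23, limma adjusted p = 0.000849). Herc6, Tap1 and Ifih1 kept their calls without either WT library, and the list then had 5 rises and 1 fall. Icam1, an adhesion gene induced by inflammation, had 1189 and 1145 normalised reads in DKO libraries and 16.7 and 26.1 in WT libraries. Among 15 chemokine and inflammatory genes 4 rose and 3 fell, and 2 and 2 without either WT library. Without DKO replicate 1 there were 5 and 5, and without DKO replicate 2 there were 3 and 6.

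The Notch list had 13 rises and no fall among 21 measured genes, with a median log2 change of 1.21, at 0.96 in DKO replicate 1 and 1.54 in DKO replicate 2. The receptor Notch3 had 714 and 1241 normalised reads in DKO libraries and 80.0 and 67.1 in WT libraries, and rose by 3.67 (SE 0.34, limma adjusted p = 0.00218). Hey1, a repressor that Notch signalling induces, had 236 and 403 normalised reads in DKO libraries and 26 and 22.4 in WT libraries. The glycosyltransferase Lfng, which tunes Notch receptors, and the ligand Jag2 rose by 2.70 and 1.61. DKO replicate 1 stood above DKO replicate 2 in 2 of the 21 genes. The median GC content of the list was 55.2%, against 50.2% over all genes, and the DKO libraries differed with GC content, as described below. With a GC correction added after seeing the data, the list had 13 rises and 1 fall, with a median log2 change of 1.04. Without WT replicate 1 the list had 4 rises and without WT replicate 2 it had 2. Lfng did not pass without WT replicate 1 (0.0527) or WT replicate 2 (0.0561), nor did Jag2 (0.0908 and 0.0933). Without DKO replicate 2 the list had 13 rises and 3 falls.

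Growth factors, imprinted genes and homeotic genes held some of the larger changes. Of 32 measured growth factors of muscle and imprinted genes 9 rose and 13 fell. Igfbp5, which binds insulin-like growth factors, had 23374 and 35954 normalised reads in DKO libraries and 3005 and 2650 in WT libraries, and rose by 3.36 (SE 0.27, limma adjusted p = 0.00171). Inhbb, an activin subunit, had 1443 and 1343 normalised reads in DKO libraries and 166 and 123 in WT libraries. Ltbp4, which binds latent TGF-beta, rose by 5.42. The imprinted noncoding RNA Meg3 fell to 1851 and 3758 normalised reads in DKO libraries, against 77679 and 64761 in WT libraries, and its exons overlap microRNA genes. Without either WT library the list had 5 rises and 4 falls. In the Hoxb cluster, chosen after its values were seen, 5 of 6 measured genes fell and none rose, with a median log2 change of -2.94. Hoxb4 had 16.3 and 10.5 normalised reads in DKO libraries and 117 and 103 in WT libraries, and did not pass without WT replicate 1 (0.0633) or WT replicate 2 (0.0539). In the Hoxd cluster both measured genes fell, with log2 changes of -6.35 in Hoxd3 and -7.94 in Hoxd8, and of 9 measured Hoxa genes 1 rose and 3 fell.

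Calls in both directions were also made in 6 further lists. Metalloproteinases and their inhibitors had 8 rises and 12 falls among 28, immediate early genes 9 and 4 among 22, lysosome and autophagy 7 and 7 among 30, and Polycomb and histone modifiers 12 and 4 among 39. The unfolded protein and amino acid stress list had 5 rises and 3 falls among 26, and heat shock 1 and 4 among 16. Among stress genes Pck2 rose by 3.45 and Chac1 by 3.24, both targets of ATF4. With WT replicate 1 left out, 1 rise and 1 fall were left among immediate early genes, 1 and 2 among metalloproteinases, 2 and 1 in the stress list and no rise and 2 falls in heat shock. With WT replicate 2 left out these were 2 and 1, 2 and 3, 3 and none, and none and 2. The Polycomb list kept 2 rises and no fall, and the lysosome list no call, in either case. Without DKO replicate 1 the rises and falls were 14 and 6 for immediate early genes, 10 and 4 for the stress list, 5 and 9 for heat shock, 11 and 14 for lysosome and 19 and 7 for Polycomb. Without DKO replicate 2 they were 9 and 8, 7 and 3, 1 and 10, 8 and 15, and 18 and 11. There were 3 small lists with falls only. They were the muscle ubiquitin ligases and Foxo genes with 3 of 12, led by Asb5, the mitochondrially encoded messengers with 2 of 7, mt-Nd2 and mt-Nd6, and nuclear or non-polyadenylated RNA with 3 of 5, Meg3, Snhg11 and mt-Rnr1. Without either WT library the falls numbered 1, none and 1. Leaving out DKO replicate 1 gave 4 rises and 6 falls, 1 and 4, and none and 5, and leaving out DKO replicate 2 gave 1 and 5, none and 5, and 1 and 3.

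The difference between the DKO libraries varied with the GC content of transcripts. Over 15044 genes with a GC value (93.8%), Spearman's rho between GC content and the log2 difference of DKO replicate 1 minus DKO replicate 2 was -0.49, and -0.04 for the WT pair. The genes share 4 libraries and are not independent, so these are descriptions. In the 702 genes under 40% GC, the median difference was 0.71 between the DKO libraries and -0.78 between DKO replicate 2 and WT. In the 753 genes at 60% GC and over it was -0.63 and 0.86. DKO replicate 1 stayed near WT throughout, between -0.09 and 0.16. Length gave a rho of -0.03. The cause of the difference between the DKO libraries was not tested. The calls differed with GC content as well. Of the 702 genes under 40% GC 89 rose and 127 fell, and of the 753 at 60% and over 235 rose and 84 fell. The lowest median GC content of the lists was 37.1%, in the mitochondrially encoded messengers. With the GC correction their median log2 change was -0.04 and 1 fell, against -0.56 and 2 in the reported fit.

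**Figure D5:**
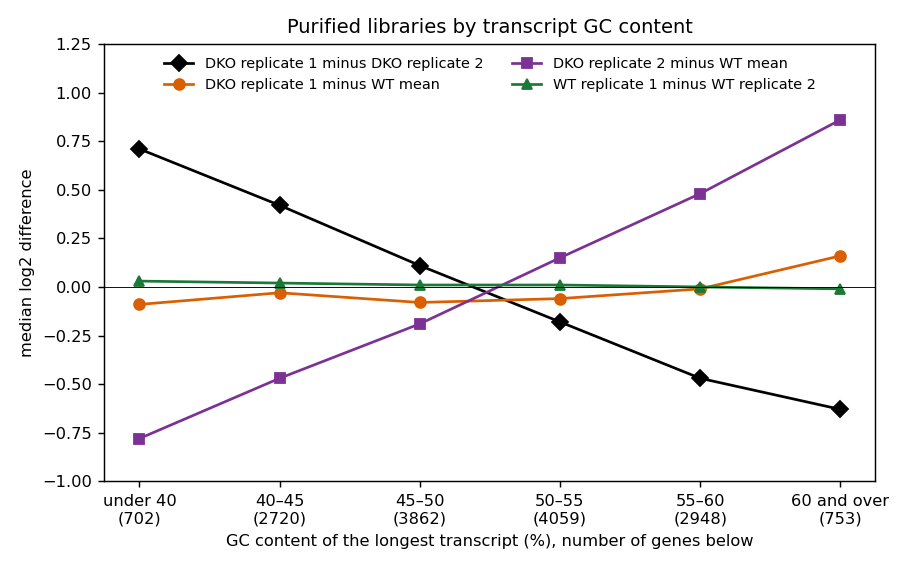
Median log2 difference (y axis) by GC content of transcripts (x axis, number of genes under each range) for the DKO pair, for each DKO library against the WT mean, and for the WT pair. The WT pair is flat near 0 and DKO replicate 1 stays within 0.16 of WT, while DKO replicate 2 climbs with GC content, at -0.78 in the lowest range and 0.86 in the highest.

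The genes furthest apart between the DKO libraries spanned much of the GC range. The 8 that were lower in DKO replicate 2 lay between 34.3% GC (mt-Tt) and 55.2% (Tuba1b), and the 7 described that were higher lay between 45.9% (Hspa8) and 68.4% (Scand1). Ubb, a polyubiquitin gene, had 408 normalised reads in DKO replicate 1 and 9.42 in DKO replicate 2, against 504 and 489 in WT libraries. The alpha-tubulin gene Tuba1b had 1368 and 50.2 in the DKO libraries and 739 and 528 in WT libraries, and Tuba1a had 260 and 28.3 against 3684 and 3660. Tubulin paralogues are close in sequence, so their reads may be divided between them. Atp5mpl, Eif3j2, Timm8b, C1d and the mitochondrial transfer RNA mt-Tt were likewise lower in DKO replicate 2. In the other direction, Hspa8, a constitutive chaperone, had 351 and 2497 normalised reads in the DKO libraries and 502 and 563 in WT libraries. Mbd6 had 938 and 5920 in the DKO libraries and 532 and 533 in WT libraries, and Scand1, Ubxn11, Muc1, Sod3 and Zfp36 were also higher in DKO replicate 2. Exons of Scand1 overlap Cnbd2, those of Ubxn11 Sh3bgrl3, those of Hspa8 Snord14e and those of Timm8b Nkapd1. Of these 15 genes, only Tuba1a and Sod3 passed against WT, both lower in DKO myotubes, and neither did without WT replicate 1 (0.0723 and 0.1) or WT replicate 2 (0.0689 and 0.0896). These genes were chosen for a wide gap between the DKO libraries and a narrow one between the WT libraries. A fit with a DKO library left out takes its spread from the WT pair alone. Passing such a fit is therefore favoured by the choice and is not counted here.

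On the X chromosome, outside the counts above, 92 of 632 tested genes rose (14.6%) and 141 fell (22.3%), and all 4 tested Y genes fell (100%). Kdm5c, the X-linked relative of Kdm5a, had 2067 and 2604 normalised reads in DKO libraries and 2618 and 2860 in WT libraries (limma adjusted p = 0.395), and the Y-linked Kdm5d had none in DKO libraries and 504 and 390 in WT libraries.

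Mixed cultures of the same genotypes were read as well, with 2 libraries a group, made from unpurified cells with a ribosome-depletion protocol. Xist had 0 and 0 normalised reads in WT mixed libraries and 6932.5 and 6810 in DKO mixed libraries. Ddx3y had 3319 and 3308 in WT mixed libraries and 0 and 0 in DKO mixed libraries. Genotype and sex therefore cannot be told apart in mixed cultures either. Across 15654 genes with both values, the purified and the mixed changes had a Spearman rho of 0.69, a description over genes. Of 3334 genes that rose in purified myotubes and were fitted in mixed cultures, 2516 also rose there, 85 fell and 733 did not pass. Of 2884 that fell, 1912 also fell, 123 rose and 849 did not pass. The mixed calls came from the fit over all 12 libraries, which calls more genes. For purified myotubes that fit called 9893 genes, against 6361 in the reported fit. The shares of all genes that rose or fell in mixed cultures are not reported here. These overlaps therefore have no background, and whether they exceed it was not tested. The change differed between the 2 kinds of sample for 4126 of 16610 genes (24.8%), 1955 (11.8%) more positive and 2171 (13.1%) more negative in purified myotubes, by limma's interaction contrast. With 1 library left out, the more positive numbered from 1100 (without DKO mixed replicate 1) to 4070 (without DKO purified replicate 1), and the more negative from 1264 (without DKO mixed replicate 2) to 4563 (without DKO purified replicate 1). Purification, library protocol, sequencer and read length (36 bases in purified and 40 in mixed libraries) cannot be told apart in this contrast.

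Ckm rose in purified myotubes and fell by 1.15 in mixed cultures, and the difference of 3.51 passed (limma adjusted p = 1.6e-05). The more positive changes in purified myotubes were led by Nrxn3, a neurexin of synapses, with 384 and 412 normalised reads in DKO libraries and 3.72 and 1.24 in WT libraries. Ip6k3, an inositol phosphate kinase of muscle, the developmental factors Mab21l2 and Tbx4, and Nfix, a factor of fetal muscle, followed. Nfix had 2804 and 10177 normalised reads in DKO libraries and 87.4 and 107 in WT libraries. Each of these genes, and Ckm, had fewer normalised reads in purified WT libraries than in mixed WT libraries. In mixed cultures Nrxn3 had 1328.1 and 1040.4 normalised reads in WT libraries and 1020.5 and 1391.8 in DKO libraries. Among DKO libraries, Nrxn3 and Ip6k3 were lower in purified than in mixed ones. Nfix, Mab21l2 and Ckm were higher in purified than in mixed DKO libraries, and Tbx4 overlapped. The more negative changes were led by the cold receptor gene Trpm8, which fell to 3.25 and 1.05 normalised reads in DKO libraries, against 486 and 521 in WT libraries. The lipid kinase gene Pik3cg fell to 8.13 and 1.05, against 458 and 385 in WT libraries. Trpm8 and Pik3cg both had far fewer normalised reads in mixed WT libraries than in purified WT libraries. Fap, a fibroblast protease, had 4.88 and 4.19 normalised reads in DKO libraries and 9.30 and 28.6 in WT libraries, and did not pass in purified myotubes (limma adjusted p = 0.116). Exons of Nfix overlap G430095P16Rik and Lyl1, those of Mab21l2 overlap Lrba and those of Trpm8 overlap 4930453O03Rik. Of these genes Tbx4 lost its call in purified myotubes without WT replicate 1 (0.0509), WT replicate 2 (0.137) or DKO replicate 2 (0.0558).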

How the data were processed

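RNA of 12 libraries was sequenced, as 36-base reads in the 4 purified and 40-base reads in the 8 mixed libraries. The purified libraries were analysed here, with the mixed DKO and WT libraries for the comparison between kinds of sample. The deposited values are a signal, reads per gene divided by a size factor. Alignment used TopHat 1.2.0 and mm9, and the size factors came from DESeq, per the submitters' processing notes. The read counter and annotation are not given in the sources used here. Each column is a whole-number multiple of 1 step (100% of values within 0.01 of a whole number), which gave back the reads, used for totals, floors of 3 reads over a group and the count tests.

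Differences were fitted with limma 3.58.1 (R 4.3.3, intensity trend) on log2(value + 1), which understates folds of low genes, over genes with a mean of at least 10. Adjusted p-values are Benjamini-Hochberg over all genes fitted, with a threshold of 0.05. The contrast with mixed cultures was fitted over all 12 libraries in their 6 groups, Kdm5a knockout and Rb1 knockout cultures included, which share 1 estimate of the spread. Alternatives were edgeR 4.0.16, DESeq2 1.42.0, other scalings, filters and pseudocounts, array weights, a GC correction added after seeing the data, and leaving out each library. The fit was also run on simulated data. There all libraries shared a common trend of the spread and had no GC effect. That run therefore cannot speak to the difference between the DKO libraries. Names, chromosomes, GC content and shared exons came from GENCODE M21, of a later build (85.5% of 36229 identifiers matched), and promoters from RefSeq GRCm38.p6.

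The members and gene lists were chosen with earlier results of these data known. Named genes were the targeted and marker genes, the 10 largest rises and falls that passed, did not overlap and had a group mean of at least 100, the 8 furthest apart each way between DKO libraries, the 5 differing most from mixed cultures each way, and up to 4 of each list by p. Other names were chosen after their values were seen, and some genes that the rule picks are not reported here. Counting intervals and floors cover counting error only.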

Additional observations from a re-analysis of the deposited data

Results flagged for a closer look

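Of 159 named genes fitted in both kinds of sample, the DKO effect differed between purified myotubes and mixed cultures for 89 by limma's interaction contrast over the 12 libraries. Over all genes it differed for 4126 of 16610 (24.8%). The 5 genes each way that differed most were named for passing this contrast, and others for large changes in purified myotubes. The count of 89 is therefore partly set by the naming and is not a result about these genes. Each value in brackets is the purified minus the mixed log2 change, and fitted values of genes near 0 reads are no bounds. The effect was more positive in purified myotubes for 33 genes. The furthest from 0 were Nrxn3 (6.92), Ip6k3 (6.31), Mab21l2 (5.33), Tbx4 (5.21), Nfix (4.94), Map2 (4.37), Kif18b (4.22), Chac1 (4.05), Igfbp5 (3.75), Ckm (3.51), Colq (3.28), Esrrg (3.21), Cdkn2a (2.98) and Brca1 (2.58). Next came Matn3 (2.46), Ltbp4 (2.33), Postn (2.29), Cox8b (2.29), Eno2 (2.14), Bin1 (1.96), Fam81a (1.96), Mymx (1.96), Myh1 (1.92), Pck2 (1.90), Asf1b (1.65), Rrm2 (1.54), Hey1 (1.53) and Tnnt3 (1.51). The remaining such genes were Cdc20 (1.48), Cdk1 (1.24), E2f1 (1.06), Mef2a (1.01) and Jag2 (0.80).

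It was more negative in purified myotubes for 56 genes. The furthest from 0 were Trpm8 (-7.42), Fap (-7.40), Pik3cg (-7.05), Hoxd3os1 (-6.00), Ifih1 (-5.94), Hoxd8 (-5.81), Mtnr1a (-5.48), Mstn (-5.48), Tnc (-5.20), Mycn (-5.09), Ccn2 (-4.79), Hoxd3 (-4.38), Rxfp1 (-3.73) and Rxrg (-3.73). After these came Vgll2 (-3.72), Scg2 (-3.61), Hoxb4 (-3.50), mt-Rnr1 (-3.40), Tchh (-3.33), Kif26a (-3.32), Ppp1r3c (-3.14), Tuba1a (-3.12), Myh8 (-2.76), Fabp3 (-2.67), Krt19 (-2.15), Meg3 (-2.12), Musk (-2.11) and Hspa5 (-1.92). Then followed Col3a1 (-1.87), Col12a1 (-1.81), Asb5 (-1.75), Fbxw7 (-1.74), Kdm5a (-1.68), Myoz2 (-1.64), Sntb1 (-1.63), Pdgfra (-1.62), mt-Nd6 (-1.61), Mef2c (-1.58), Dlgap5 (-1.57), Cenpp (-1.54), Ttn (-1.54) and mt-Nd2 (-1.40). The others were Kdm5b (-1.39), Actc1 (-1.35), Acta2 (-1.27), Jam2 (-1.27), Hk2 (-1.19), Myl4 (-1.19), Lpl (-1.11), Inhbb (-1.11), Itgam (-1.04), Cacna1s (-0.94), Actn2 (-0.94), Casq2 (-0.87), Mcm6 (-0.67) and Rb1 (-0.55).

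Adjusted p by limma ran from 3.75e-06 to 0.0479. Ckm, Ip6k3, Mab21l2 and Tbx4 had changes of 2.36, 5.92, 4.68 and 2.63 in purified myotubes and -1.15, -0.39, -0.65 and -2.57 in mixed cultures. Fap changed by -1.66 in purified myotubes and by 5.73 in mixed cultures, and Ifih1 by -5.15 and 0.79. The targeted gene Kdm5a changed by -2.06 in purified myotubes and by -0.38 in mixed cultures, and Rb1 by -0.59 and -0.04. Purification, read length, sequencer and the RNA protocol, poly(A) selection in purified myotubes and ribosome depletion in mixed cultures, cannot be told apart in this contrast.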

How the results depend on the processing

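The 6361 calls (3408 rises, 2953 falls) were close in number to those by edgeR (6312), DESeq2 (6261), TMM factors (6264 of the 16033 shared genes), library totals (6211 of 16017) and array weights (6069). A GC correction chosen after seeing the data called 7177 of the 15044 genes with a GC value, against 6062 of them in the reported fit, and 81.9% of its calls were among the reported ones. No gene passed in opposite directions between the reported fit and any of these. Library totals moved the median of all genes to 0.19 and the split to 4105 rises and 2131 falls. A fit over all 12 libraries called 9893 and gave 5015 falls. With 1 purified library left out in turn, the rises numbered from 1046 to 5396 and the falls from 494 to 5534. In the contrast with mixed cultures, with 1 library left out, the more positive genes numbered from 1100 to 4070 and the more negative from 1264 to 4563. Replicate numbers pair nothing in the labels, and deviations of same-numbered libraries had a correlation of 0.01 over genes. With the replicate number as a block 7335 genes passed, 3833 rises and 3502 falls, and 95.7% of the reported calls were among them. Of 159 named genes with a test, 132 of which passed, 102 kept direction and side of the threshold in every alternative.

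Myod1 turned positive by DESeq2 (0.17), edgeR (0.18) and library totals (0.17), and ran from -0.81 to 0.71 with 1 library left out. Zfp36 turned positive by DESeq2 (0.25), edgeR (0.26) and library totals (0.02), and ran from -1.36 to 0.96. Tuba1b turned positive by DESeq2 (0.20) and edgeR (0.22), and ran from -3.61 to 1.13. With 1 library left out Mymk ran from -0.95 to 0.40, mt-Tt from -7.39 to 0.23, mt-Rnr2 from -1.93 to 0.48, Hspa8 from -0.60 to 2.23, Scand1 from -0.52 to 2.24 and Ubxn11 from -0.75 to 2.19. In these 9 genes the sign turned with 1 DKO library left out, and the cause was not tested. With 2 libraries a group, depth limits genes of few reads.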

Other observations

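Lipoprotein lipase, encoded by Lpl and used by muscle and fat to take up fatty acids, had 559 and 518 normalised reads in DKO libraries and 2783 and 2696 in WT libraries, and fell by 2.35 on the log2 scale (SE 0.18, limma adjusted p = 0.00161). The defining adipocyte genes Adipoq, Plin1, Fabp4 and Cidec summed to 11.4 and 14.7 normalised reads in DKO libraries and 0 and 6.21 in WT libraries. Asb5, a muscle gene of an E3 ligase family, had 89.4 and 54.4 normalised reads in DKO libraries and 2564 and 3056 in WT libraries, and fell by 5.31 (SE 0.31, limma adjusted p = 0.00112). Its exons overlap Spcs3. The integrin gene Itgam had 229 and 239 normalised reads in DKO libraries and 1874 and 1719 in WT libraries, and fell by 2.93, while the macrophage gene Adgre1 had no read in any library. These 3 calls were kept with either WT library left out.

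The mitochondrial ribosomal RNA mt-Rnr2 had 15409 and 2903 normalised reads in DKO libraries and 11060 and 11054 in WT libraries, and mt-Rnr1 had 2038 and 407 in DKO libraries and 7295 and 7249 in WT libraries. DKO replicate 2 was the lowest library for both. By limma mt-Rnr1 fell (SE 0.75 on the log2 scale, adjusted p = 0.0302), a call lost without WT replicate 1 (0.137) or WT replicate 2 (0.132), while mt-Rnr2 had a log2 change of -0.73 (0.482). The chaperone gene Hspa5 had 6619 and 3223 normalised reads in DKO libraries and 12910 and 29915 in WT libraries, where the WT pair lay wide apart. Pdia4, of the same protein-folding pathway, had 1882 and 1437 normalised reads in DKO libraries and 3124 and 8193 in WT libraries. Hspa5 fell by 2.09 (limma adjusted p = 0.0321), a call lost without DKO replicate 2 (0.0805), WT replicate 1 (0.0713) or WT replicate 2 (0.209). Pdia4 fell by 1.62 (0.0498) and lost its call without DKO replicate 1 (0.0738), DKO replicate 2 (0.131) or WT replicate 2 (0.263).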
